A study of Mus musculus with 3 samples.

Results

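The cells compared here are single mouse embryonic stem cells in which Nanog transcripts were seen, set against cells of the same chip and cell type in which none were seen. The data are counts of unique molecular identifiers (UMIs, each marking 1 captured RNA molecule) per gene and well. Wells labelled as 1 of 3 cell types were kept if they held at least 1000 detected genes, under 20% mitochondrial UMIs and at least 20000 gene UMIs, and each was then thinned at random, with a fixed seed, to 20000 UMIs. A well with at least 1 Nanog UMI after thinning was called Nanog-positive, and a well with 0 was called Nanog-negative. Of 4610 wells of the 3 cell types, 2896 were eligible. Of these, 435 were Nanog-positive and 2461 were Nanog-negative, so that 15.0% were positive (95% exact Clopper-Pearson interval 13.7 to 16.4%, covering counting error only).

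All cells came from blastocyst-derived embryonic stem cells of the C57BL/6J strain that carried loxP-flanked alleles of Mll1 (Mll1fl/fl) together with Cre-ER TM, a Cre recombinase that tamoxifen activates. The 3 cell types were deleted cells (Mll1-/-), inhibited cells (labelled Mll1 inhibition) and control cells (labelled Mll1fl/fl control), and every one of 3 plates held all 3. The loxP alleles, the Cre-ER TM and the strain are thus given for the control cells too. The labels name no inhibitor, dose or time, no deleted exons, and neither the promoter that drives the Cre nor the number of clones. Mll1, now named Kmt2a, encodes a methyltransferase of lysine 4 of histone H3. Counts were summed per plate, cell type and class into 18 libraries, which form 9 pairs of a Nanog-positive and a Nanog-negative library. The p-values of comparisons between the classes measure the spread over these 9 pairs. They count the 3 pairs of a plate as if they were independent. The p-values for shares of wells rest on the 3 plates. The labels do not say that the plates were separate cultures, so either spread may be technical only.

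Nanog is a homeodomain transcription factor of the inner cell mass and of embryonic stem cells. It acts with Pou5f1 (Oct4) and Sox2 in the network that keeps these cells pluripotent, and its level is known to vary between cells of 1 culture. Cells low in Nanog can regain it, and they are known for being more prone to differentiate. Other genes of the naive state of pluripotency, such as Esrrb, Klf4, Tfcp2l1 and Zfp42, are known to vary between cells in the same way. A single-cell method captures a small part of the transcripts of a cell, so that a well without a Nanog UMI can hold a cell that expresses the gene.

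Nanog lies on chromosome 6, 122707489 to 122714633, plus strand. Gene coordinates here and below are from GENCODE M21, on GRCm38 (mm10). The stretch upstream of its start is shown because it holds the joined octamer and Sox element through which Oct4 and Sox2 are known to act on this gene. Sequences are those of RefSeq for the build GRCm38.p6, read 5′ to 3′ on the strand of the gene, with the element in capitals. The Nanog stretch is chr6:122707374-122707465, plus strand.
Nanog: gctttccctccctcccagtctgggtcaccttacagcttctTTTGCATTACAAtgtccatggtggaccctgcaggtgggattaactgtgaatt
The letters in capitals, with any base allowed between TTTGCAT and ACAA, were searched on both strands, and 10 of 27025 genes with a promoter window (250 bases before to 50 after the start) held them in any of their windows. A match is a description of the sequence and no evidence of binding in these cells.

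The wells were chosen by their Nanog UMIs, so the level of Nanog is a description and carries no test. Among Nanog-positive wells, 235 held 1 Nanog UMI in 20000, 71 held 2 and 129 held 3 or more, and the highest held 29. On the other side of the threshold, 459 of the 2461 Nanog-negative wells (18.7%) held a Nanog UMI among those that the thinning had removed. The Nanog-positive libraries held 103, 180 and 112 Nanog CPM (UMIs of a gene per 1000000 UMIs of the library) in deleted cells on plates 1 to 3, 85.5, 126 and 112 CPM in inhibited cells, and 141, 134 and 113 CPM in control cells. The depth threshold fell between a well of 19850 UMIs, left out, and a well of 20039 UMIs, kept. A second draw of 20000 UMIs that shared no UMI with the first was possible in 2084 wells of at least 40000 UMIs. In that draw, which did not set the class, Nanog was at 54.2 to 150.0 CPM (median 102) in the 9 Nanog-positive libraries (340 wells) and at 3.02 to 8.20 CPM (median 4.63) in the 9 Nanog-negative ones (1744 wells). The ratio within a pair was 8.28 to 34.2, with a median of 24.4, and the groups did not overlap. Wells without cells held 0 Nanog UMIs, but among 2719 UMIs in all, a depth at which a count of 0 allows up to 1103 CPM (3 counts), so they do not measure the background at the levels seen here. When the thinning was repeated with a second seed, 303 wells were positive in both draws, 132 in the first alone and 147 in the second alone.

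Nanog-positive wells made up 17.1, 16.1 and 15.6% of deleted cells on plates 1 to 3, 8.68, 8.71 and 13.3% of inhibited cells, and 18.3, 17.9 and 20.6% of control cells. Inhibited cells were below control cells on all 3 plates, by 8.71 percentage points on average (SD 1.23, n = 3). Deleted cells were below control cells on all 3 plates as well, by 2.68 percentage points (SD 2.03, n = 3). Neither difference can pass a threshold of 0.05, since the exact two-sided permutation of the signs over 3 plates gave p = 0.25 in both, the smallest p that 3 plates allow. Without thinning, wells with any Nanog UMI made up 31.3% of deleted, 25.5% of inhibited and 35.6% of control cells. The cell types sat in set source wells of each plate, so source well and cell type cannot be told apart within a plate. The share also varied between source wells of the same plate and cell type. On plate 1 it was 15.4 to 18.8% in deleted, 4.65 to 10.7% in inhibited and 16.2 to 20.5% in control source wells. Deleted and control source wells thus overlapped there. On plate 3 they did not, at 14.3 to 17.7% in deleted and 20.2 to 21.1% in control source wells. Plate 3 used another arrangement than plates 1 and 2.

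**Figure D1:**
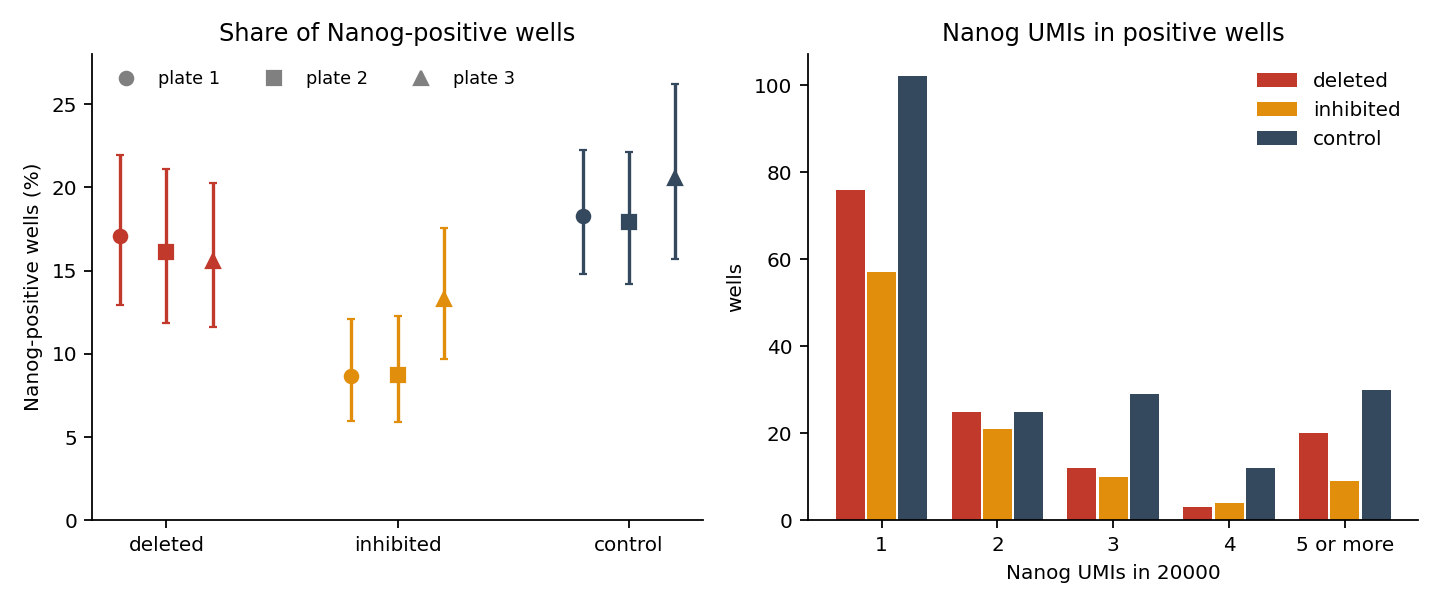
Left, percentage of eligible wells that were Nanog-positive in deleted, inhibited and control cells, 1 point per plate with 95% exact binomial intervals; inhibited cells lay at 8.68 to 13.3%, below control cells at 17.9 to 20.6% on each plate. Right, number of Nanog-positive wells by their Nanog UMIs in 20000, per cell type over 3 plates; 235 of 435 held 1.

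Depth and quality differed between the classes by less than their spread over pairs. The median well of a pair held 23.1 more genes per 20000 UMIs in the Nanog-positive class (SD 63.1, n = 9 pairs; higher in 5 of 9; exact sign permutation p = 0.312), and its mitochondrial share differed by 0.0336 percentage points (SD 0.109; p = 0.383). Before thinning, the median Nanog-positive well held 6619 more UMIs (SD 14190; higher in 4 of 9 pairs; exact p = 0.211), but with the second seed the difference was 9571 UMIs and passed at p = 0.0469. The Nanog-positive libraries held 580000 to 1600000 UMIs from 29 to 80 wells, and the Nanog-negative ones 3860000 to 7140000 UMIs from 193 to 357 wells. Plates shared 391 to 453 well barcodes pairwise, with 0 identical wells. Kmt2a, the targeted gene, was at 56.9, 44 and 13.5 CPM in Nanog-positive deleted cells, 57.1, 32 and 30.1 CPM in Nanog-positive inhibited cells and 35.7, 63.4 and 44 CPM in Nanog-positive control cells, and these counts cannot check the genotype, since the labels say neither which exons were removed nor which end of a transcript was read. Defining genes of embryonic stem cells were widely detected: Dppa5a had a UMI in 99.8% of Nanog-positive and 99.6% of Nanog-negative wells and Pou5f1 in 66 and 59.7%.

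The main comparison asked which other transcripts differ between Nanog-positive and Nanog-negative cells of the same plate and cell type. The pluripotency genes Dppa5a, Tet1 and Sox2 rose in Nanog-positive cells, as did 5 of 12 transcription factors of the naive state, Nr0b1 among them, while the keratins Krt8, Krt18 and Krt19, the annexin Anxa2 and the galectin Lgals1 fell. Over the 9 pairs, 134 of 11872 genes tested passed an adjusted p of 0.05 (edgeR quasi-likelihood test, Benjamini-Hochberg adjustment, Nanog left out), or 1.13% of them. Of these, 71 were higher in Nanog-positive cells (0.598%) and 63 were lower (0.531%). The differences were modest, with a median size of 0.48 on the log2 scale for the genes that rose and 0.56 for those that fell. Of the 71, 39 were higher in all 9 pairs and 66 in at least 8; of the 63, 27 were lower in all 9 pairs and 56 in at least 8. The median over all genes tested was -0.03, with 5467 of them above 0 and 6405 below. An unadjusted p under 0.05 was reached by 1358 of the 11872 genes. In a summed library, more wells with a transcript and more transcripts per well cannot be told apart, and shares of wells with a UMI are given for some genes.

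Among transcription factors of the naive state, 5 of the 12 tested rose (Nr0b1, Klf4, Esrrb, Tfcp2l1 and Zfp42) and 0 fell. Of all genes tested, 0.598% rose and 0.531% fell. The list's median was 0.42, against -0.03 over all genes, and 9 of 12 lay above 0, against 5467 of all 11872. Below 0 lay Nr5a2 (-1.13, adjusted p = 0.347 in edgeR), Gbx2 (-0.28) and Sall1 (-0.04), named after their values were seen. Nr5a2 had few counts, at a mean of 3.70 CPM in Nanog-positive and 7.63 CPM in Nanog-negative libraries. Nr0b1 (chromosome X, 86191764 to 86195947), which encodes the nuclear receptor DAX1, was at 119 to 278 CPM (median 171) in the Nanog-positive libraries, against 60.0 to 162 CPM (median 92.5) in the Nanog-negative ones. It was higher in all 9 pairs, by 0.86 ± 0.12 on the log2 scale (SE; adjusted p = 0.000218), although the ranges overlapped, with Nanog-positive inhibited cells the lowest of their class and plate 3 the highest in the Nanog-negative class. Klf4 (chromosome 4, 55527143 to 55532466), a Krüppel-like factor and one of the reprogramming factors, was at 29.2 to 63.9 CPM (median 44.6) in the Nanog-positive libraries, against 21.8 to 35.6 CPM (median 25.8) in the Nanog-negative ones, again higher in all 9 pairs (0.79 ± 0.16, adjusted p = 0.0106). Zfp42 (chromosome 8, 43295063 to 43306980), known as Rex1 and widely used as a marker of the naive state, averaged 171 ± 32 CPM in Nanog-positive and 130.2 ± 17.4 CPM in Nanog-negative libraries (SD, n = 9 each), a difference of 0.39 ± 0.09 (adjusted p = 0.0275) seen in all 9 pairs. Esrrb and Tfcp2l1, which encode an orphan nuclear receptor and a CP2-family factor that both act in naive self-renewal, rose by 0.78 ± 0.18 in 7 of 9 pairs (adjusted p = 0.0312) and by 0.64 ± 0.16 in 8 of 9 (adjusted p = 0.0379); they were named after their values were seen. A UMI of Esrrb was present in 34.3% of Nanog-positive and 21.7% of Nanog-negative wells.

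Sox2 (chromosome 3, 34650405 to 34652461), the partner of Oct4 on the element printed above, was the 1 gene of 7 core pluripotency factors that passed. It was at 117 to 262 CPM (median 186) in the Nanog-positive libraries, against 106 to 142 CPM (median 130.0) in the Nanog-negative ones. All 9 pairs were higher in the Nanog-positive class, by 0.54 ± 0.09 (adjusted p = 0.000887), but the plate 2 inhibited pair was close, at 117 CPM in Nanog-positive and 109 CPM in Nanog-negative cells. Pou5f1, which encodes Oct4, averaged 66.8 ± 11.4 CPM in Nanog-positive and 56.8 ± 4.99 CPM in Nanog-negative libraries (SD, n = 9 each), a difference of 0.22 ± 0.13 that did not pass (adjusted p = 0.562). The median of these 7 genes was 0.08, and all 7 lay above 0, against 5467 of all 11872 genes tested. Without TMM scaling of the library sizes, 5 of the 7 lay above 0 (median 0.04), against 4751 of all 11872. The share of all genes tested that rose was 0.598%.

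The gene with the smallest p was Dppa5a (chromosome 9, 78367052 to 78368177), which encodes an RNA-binding protein abundant in pluripotent cells. Nanog-positive deleted cells held 6529.5, 7804 and 7712 CPM on plates 1 to 3, Nanog-positive inhibited cells 6551, 6525 and 6501 CPM, and Nanog-positive control cells 8040.5, 7046 and 7389.9 CPM. The Nanog-negative libraries lay at 3447 to 5690.3 CPM, so that every Nanog-positive library exceeded every Nanog-negative one. The difference was 0.64 ± 0.05 (adjusted p = 1.33e-08). Tet1 (chromosome 10, 62804570 to 62908996), an oxidase of methylated cytosine, was at 206 to 327 CPM (median 270.2) in the Nanog-positive libraries, against 135 to 219.8 CPM (median 198) in the Nanog-negative ones, a difference of 0.48 ± 0.07 (adjusted p = 0.000147; higher in 9 of 9 pairs). Tcl1, a coactivator of the kinase Akt, rose by 2.25 ± 0.52 (adjusted p = 0.0275) with few counts, at 0 to 24.9 CPM in Nanog-positive and 0.546 to 4.33 CPM in Nanog-negative libraries; 8.28% of Nanog-positive and 1.71% of Nanog-negative wells held a UMI of it. It did not pass without plate 1 (adjusted p = 0.205) or without plate 2 (adjusted p = 0.56). Dppa5a, Tet1 and Tcl1 were the 3 that passed of the 10 members of the Dppa and Tcl1 list (median 0.51). Tet1 and Dnmt3l were the 2 of 10 genes that write or erase DNA methylation. Of all genes tested, 0.598% rose. Dnmt3l (chromosome 10, 78041947 to 78063622), a cofactor of the de novo DNA methyltransferases, rose by 0.48 ± 0.11 in 8 of 9 pairs (adjusted p = 0.0274). Of 7 tested genes of the Nodal pathway with Fgf4, Tdgf1 (chromosome 9, 110939603 to 110946158), the Nodal co-receptor Cripto, rose by 0.40 ± 0.09 in 8 of 9 pairs (adjusted p = 0.0147), at 342 ± 72.3 CPM in Nanog-positive and 255 ± 22 CPM in Nanog-negative libraries.

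**Figure D2:**
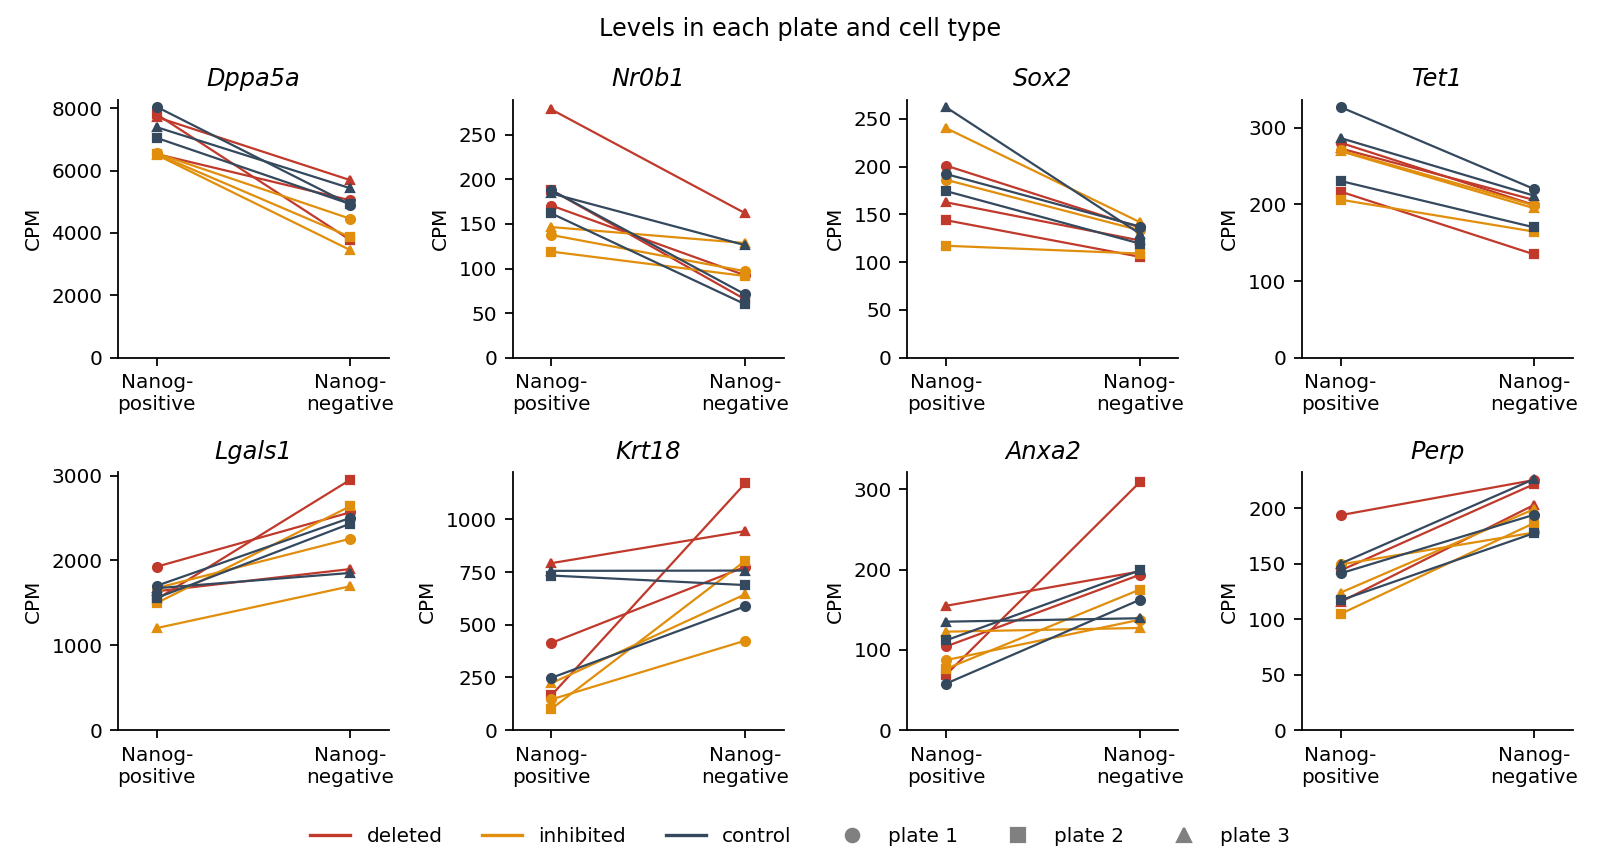
Level (CPM) of 8 genes in the Nanog-positive and the Nanog-negative library of each plate and cell type, joined by a line per pair (9 pairs). The 4 upper genes were higher in the Nanog-positive library in all 9 pairs; Lgals1, Anxa2 and Perp were lower in all 9, and Krt18 in 8.

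The 12 largest rises among genes called with at least 20 CPM and the same sign in 8 of 9 pairs were, from the largest, Gm26916, Cpsf4l, Sept1, Pla2g1b, Mymx, Slc29a1, Nr0b1, Sms-ps, Calcoco2, Nfatc2ip, Klf4 and Kmt2c. Pla2g1b (chromosome 5, 115466262 to 115474722), a secreted phospholipase, was at 185 to 524 CPM (median 279.6) in the Nanog-positive libraries, against 90.2 to 266 CPM (median 125) in the Nanog-negative ones, a difference of 1.04 ± 0.15 (adjusted p = 0.000184) seen in all 9 pairs. Slc29a1 (chromosome 17, 45585200 to 45599606), a nucleoside transporter, was at 75.2 to 432 CPM (median 139) in the Nanog-positive libraries, against 65.6 to 102 CPM (median 82.7) in the Nanog-negative ones (0.89 ± 0.14, adjusted p = 0.000973). Sept1, a septin, rose by 1.18 ± 0.21 (adjusted p = 0.00236) and had a UMI in 29.2% of Nanog-positive and 14.7% of Nanog-negative wells. Gm26916, a long noncoding RNA gene, rose by 1.87 ± 0.31 (adjusted p = 0.00132 in edgeR), at 4.49 to 141 CPM in Nanog-positive and 2.21 to 16.5 CPM in Nanog-negative libraries. A UMI of Gm26916 was present in only 7.59% of Nanog-positive and 5.44% of Nanog-negative wells, so its level rests on few wells. Cpsf4l rose by 1.30 ± 0.26, Mymx by 0.97 ± 0.21, Calcoco2, an autophagy receptor, by 0.81 ± 0.19, and Nfatc2ip by 0.80 ± 0.20 (adjusted p = 0.00954, 0.0139, 0.0289 and 0.0392). Outside the naming rule and chosen after their values were seen, Spp1, the secreted phosphoprotein osteopontin, rose by 0.59 ± 0.07 (adjusted p = 4.67e-05), Apoe, the apolipoprotein E, by 0.39 ± 0.05 (adjusted p = 0.000147), Mylpf, a myosin light chain, by 0.57 ± 0.07 (adjusted p = 2.58e-05), and Eif2s2, a subunit of the initiation factor eIF2, by 0.25 ± 0.03 (adjusted p = 9.28e-06), each in all 9 pairs. Chosen in the same way, the noncoding RNA Lncenc1 rose by 1.30 ± 0.28 (adjusted p = 0.0188), and Trim28, a corepressor of KRAB zinc finger proteins, by 0.30 ± 0.07 (adjusted p = 0.0219).

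Several of the called genes lie beside each other, and those of this paragraph were named for their position after their values were seen. Counting all called genes, 13 pairs lay within 50000 bases, and in all 13 both genes differed in the same direction. The 13 are not independent, since Mylpf, Sept1, Zfp553 and Dctpp1 all pair with each other, as do Hsp90ab1, Slc29a1 and Mymx. The share of same-direction pairs among called genes at large was not measured. On chromosome 7, Mylpf (127208890 to 127214298) ends 149 bases before Sept1 (127214447 to 127233130), which is on the other strand, and Zfp553 and Dctpp1 follow; all 4 rose, by 0.57, 1.18, 0.59 and 0.25. On chromosome 17, Hsp90ab1, which encodes a cytosolic chaperone, Slc29a1 and Mymx lie on the minus strand in that order by position, with 1365 bases between Slc29a1 and Mymx, and rose by 0.17, 0.89 and 0.97. The strand setting of the counting is not known here, so reads from touching genes on opposite strands, or running on from 1 gene into the next, cannot be told apart. Called pseudogenes are uncertain for a related reason. Of the different 31-base words of the pseudogene Gm6083 (0.66 ± 0.07, adjusted p = 1.3e-06), 39.5% also occur in Dppa5a transcripts. Of those of Sms-ps (0.83 ± 0.18), 100% occur in transcripts of Sms. Of those of Nanog, 10.4% occur in transcripts of other genes, and of those of the noncoding RNA gene Gm26916, 23.9%. The same holds for coding genes: 57.2% of the words of Dppa5a occur in transcripts of other genes (22.8% in those of Pigp, the largest share of 1 gene), 32.3% of those of Krt8 (Krt8-ps, 32.2%), 12.4% of those of Eif2s2 and 11.4% of those of Krt18. How the counting treated reads from such stretches is not known here, so the counts of these genes are uncertain to that extent.

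Krt19, Krt18 and Krt8, keratins of simple epithelia, were among the genes that fell. Krt19 (chromosome 11, 100140810 to 100148665) was at 6.71 to 27.4 CPM (median 12) in the Nanog-positive libraries, against 24.6 to 50 CPM (median 32.6) in the Nanog-negative ones, lower in all 9 pairs (log2 difference -1.38 ± 0.20, adjusted p = 0.000298). Krt18 (chromosome 15, 102028180 to 102032027) was at 414, 165 and 792 CPM in Nanog-positive deleted cells on plates 1 to 3, against 775, 1170.3 and 944 CPM in Nanog-negative deleted cells. In inhibited cells it was at 146, 101 and 223 CPM in the Nanog-positive class, against 425, 803 and 644 CPM in the Nanog-negative class. In control cells it was at 248, 734 and 756 CPM in the Nanog-positive class, against 588, 688 and 757 CPM in the Nanog-negative class, so that the classes were nearly level on plate 3 and the Nanog-positive one was the higher on plate 2. Over all pairs the difference was -1.12 ± 0.21 on the log2 scale (adjusted p = 0.00515), and that of its filament partner Krt8, 23698 bases away on chromosome 15, was -0.96 ± 0.18 (adjusted p = 0.00415). These 3 were the members called of 11 tested on a list of trophectoderm genes and simple epithelial keratins (median -0.64, 9 of 11 below 0). Of all 11872 genes tested, 0.531% were called lower and 6405 lay below 0. The factors that define trophectoderm did not pass: Cdx2 differed by -0.66 (adjusted p = 0.72), Eomes by 0.26 (adjusted p = 0.89) and Tfap2c by 0.66 (adjusted p = 0.336), named after their values were seen. Cdx2 averaged 3.63 CPM in Nanog-positive and 4.46 CPM in Nanog-negative libraries, and Eomes 7.94 and 5.64 CPM. At such low counts a difference could be missed. The summed level of the list was 248 to 1195 CPM in Nanog-positive and 637 to 1664 CPM in Nanog-negative libraries. It was lower in the Nanog-positive library of all 9 pairs. Most of this sum was Krt18 and Krt8, at means of 398 and 125 CPM in Nanog-positive and 755 and 224 CPM in Nanog-negative libraries. The sum thus largely restates these 2 genes and says little about the other members.

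Keratin UMIs were concentrated in few wells. The tenth of wells with the most Krt8 and Krt18 UMIs, within each plate and cell type, held a median of 99 of them against 3 in the rest. It took in 17 of 435 Nanog-positive wells (3.91%) and 276 of 2461 Nanog-negative wells (11.2%). Without these 293 wells, an alternative added after the data had been seen, 64 genes were called (42 higher, 22 lower), 63 of them among the 134. These wells were chosen by their Krt8 and Krt18 UMIs, which by itself shrinks the difference of these 2 genes. Krt18 then differed by -0.26 (adjusted p = 0.395 in edgeR) and Krt8 by -0.32 (0.54), so neither can be read. The choice can also shrink the difference of any gene that varies with these keratins between wells, and how far was not tested. Krt19 (-1.05, 0.0294), Dppa5a (0.57, 3.08e-09), Sox2 (0.47, 0.00792) and Nr0b1 (0.79, 0.00082) stayed past the threshold, and Anxa2 (-0.48, 0.162) did not.

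Annexins, S100 proteins and actin-binding proteins were among the other genes that fell; apart from Anxa1 and Anxa6, the genes of this paragraph were named after their values were seen, and no list of them was tested. By symbol, 4 of 8 tested annexins, 3 of 9 S100 genes and 2 of 4 tropomyosins were called lower and 0 higher, against 0.531% lower of all genes tested. Below 0 lay 8, 8 and 4 of them, against 6405 of all 11872 genes tested. The families were picked because called genes belong to them, so these counts follow in part from that choice. Lgals1 (chromosome 15, 78926725 to 78930465), the lectin galectin-1, was at 1203 to 1926 CPM (median 1636) in the Nanog-positive libraries, against 1696 to 2952 CPM (median 2435) in the Nanog-negative ones, lower in all 9 pairs (log2 difference -0.52 ± 0.06, adjusted p = 8.57e-06). Crip2, a LIM-domain protein, was lower in all 9 pairs (log2 difference -0.42 ± 0.05, adjusted p = 4.67e-05). Anxa2 (chromosome 9, 69453620 to 69491795), a calcium-dependent membrane-binding protein, was at 58 to 155 CPM (median 104) in the Nanog-positive libraries, against 127 to 309 CPM (median 175) in the Nanog-negative ones, lower in all 9 pairs (log2 difference -0.83 ± 0.15, adjusted p = 0.00368). Of the other annexins, Anxa1 differed by -1.19 ± 0.27, Anxa3 by -0.74 ± 0.12 and Anxa6 by -1.08 ± 0.21. S100a10, the binding partner of annexin A2, differed by -0.40 ± 0.09, S100a11 by -0.44 ± 0.10 and S100a6 by -0.36 ± 0.09. Tpm1 and Tpm4, the tropomyosins that lie along actin filaments, differed by -0.57 ± 0.09 and -0.48 ± 0.11, Cald1, the actin-binding caldesmon, by -0.36 ± 0.05, Flna, the actin crosslinker filamin A, by -0.35 ± 0.09, and Lmna, which encodes the A-type lamins of the nuclear envelope, by -0.56 ± 0.13. Their adjusted p ranged from 0.000254 for Cald1 to 0.0468 for S100a6.

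The 12 largest falls by the naming rule were, from the largest, Krt19, Anxa1, Sct, Krt18, Anxa6, Nes, Cxcl16, Dsp, Ahnak2, Tnfrsf12a, Krt8 and Ifi30. Nes (chromosome 3, 87971078 to 87980451), the intermediate filament nestin, was at 14.3 to 37 CPM (median 32.6) in the Nanog-positive libraries. The Nanog-negative ones were at 40.5 to 75.1 CPM (median 62.4), and the classes did not overlap (-1.0 ± 0.18, adjusted p = 0.00258 in edgeR). Nes was the 1 gene called of 5 tested neural precursor genes, against 0.531% lower of all genes tested. Sct, which encodes the peptide hormone secretin, was lower in all 9 pairs (log2 difference -1.13 ± 0.18, adjusted p = 0.000594). Cxcl16, a membrane-bound chemokine, differed by -1.0 ± 0.20 (adjusted p = 0.00969), and Tnfrsf12a, the receptor of the cytokine TWEAK, by -0.97 ± 0.24 (adjusted p = 0.0395). Dsp, the desmosomal protein desmoplakin, was lower in all 9 pairs (log2 difference -0.99 ± 0.25, adjusted p = 0.0468). Ahnak2 differed by -0.99 ± 0.22 and Ifi30, a lysosomal thiol reductase, by -0.87 ± 0.16 (adjusted p = 0.0188 and 0.00352). The imprinted noncoding RNA H19, named after its values were seen, was lower in all 9 pairs (log2 difference -0.58 ± 0.12, adjusted p = 0.00954).

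A list of p53 targets held 13 genes, among them Trp53, which encodes p53 itself (0.15 ± 0.09, adjusted p = 0.536 in edgeR). Of these 13, 2 fell and 0 rose, and of 12 immediate early genes 1 fell and 0 rose. Of all genes tested, 0.531% were lower and 0.598% higher. The summed level of the p53 list, Trp53 included, was 1291 to 1415 CPM in Nanog-positive and 1434 to 1619 CPM in Nanog-negative libraries. That of the immediate early genes was 533 to 829 CPM in Nanog-positive and 706 to 922 CPM in Nanog-negative libraries. Both sums were lower in the Nanog-positive library of all 9 pairs. Perp (chromosome 10, 18845020 to 18857073), a membrane protein of desmosomes and of apoptosis, fell to 138 ± 26.6 CPM in Nanog-positive libraries, against 201 ± 19.4 CPM in Nanog-negative ones (SD, n = 9 each; -0.56 ± 0.08, adjusted p = 0.000338; lower in 9 of 9 pairs). Cdkn1a, the cyclin-dependent kinase inhibitor p21, fell by 0.36 (SE 0.09, adjusted p = 0.0451). The median of the 13 was -0.11, with 10 below 0. All 12 immediate early genes lay below 0 (median -0.26), against 6405 of all 11872 genes tested. Dusp1, a phosphatase of MAP kinases, was the 1 that passed (-0.48 ± 0.10, adjusted p = 0.0145), lower in 9 of 9 pairs. Fos differed by -0.51 ± 0.15 (adjusted p = 0.109). Of 10 basement membrane genes, Col4a2, a chain of collagen IV, was lower, with few counts (-1.28 ± 0.32, adjusted p = 0.0443), and Col4a1 did not pass (-0.99 ± 0.26, adjusted p = 0.0549). In edgeR 0 of 18 genes of DNA replication (median 0.04) and 0 of 18 genes of mitosis (median 0.08) passed, and 0 of 10 ERK feedback, 9 LIF and STAT3, 8 Id and BMP, 13 Polycomb, 18 cholesterol synthesis and 15 glycolysis genes. Of these 109 genes, 12 had an unadjusted p under 0.05, a share similar to the 1358 of all 11872 genes tested. With DESeq2, which called 347 of the 11872, 2 of the 109 passed. They were Top2a, the mitotic topoisomerase (0.23 ± 0.07, adjusted p = 0.0946 in edgeR), and Id2, an inhibitor of bHLH factors (-0.31 ± 0.09, adjusted p = 0.0993 in edgeR). Of 10 tested formative and primed epiblast genes, Dnmt3l alone passed, and of 11 mitochondrial transcripts mt-Nd5 (0.16 ± 0.04, adjusted p = 0.0231). Ncl, the nucleolar protein nucleolin, rose by 0.16 ± 0.03 (adjusted p = 0.0188) as the 1 of 11 Myc and nucleolar growth genes.

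Markers of other cells were low or did not pass. Of 11 markers of feeder fibroblasts, 4 were tested and 0 passed in edgeR or DESeq2, with 3 at an unadjusted p under 0.05. All 4 lay below 0 (median -0.55): Acta2 differed by -1.93 (adjusted p = 0.127), Tagln by -0.58 (adjusted p = 0.219), Twist1 by -0.51 (adjusted p = 0.809) and Vim by -0.35 (adjusted p = 0.204). These moved in the same direction as the annexins, S100 proteins and actin-binding proteins above, and their part in those falls was not tested. The sum of the 11 was 70.7 to 354 CPM in Nanog-positive and 197 to 335 CPM in Nanog-negative libraries, lower in 7 of 9 pairs, with Lum at 0. Of 12 regulators of primitive endoderm, 4 were tested and 0 passed in edgeR or DESeq2, with 0 at an unadjusted p under 0.05; the sum of the 12 was 7.32 to 35.5 CPM in Nanog-positive and 10.1 to 24.2 CPM in Nanog-negative libraries, with Hnf4a at 0. Of 10 mesoderm and primitive streak genes, 1 was tested and did not pass in edgeR or DESeq2, with an unadjusted p under 0.05. A two-cell-like and a germline list held 7 and 11 tested genes, with 0 past the threshold in edgeR or DESeq2 and 0 at an unadjusted p under 0.05, and the same held for 2 tested vitamin D pathway genes. The part of these cells in the differences above was not tested.

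**Figure D3:**
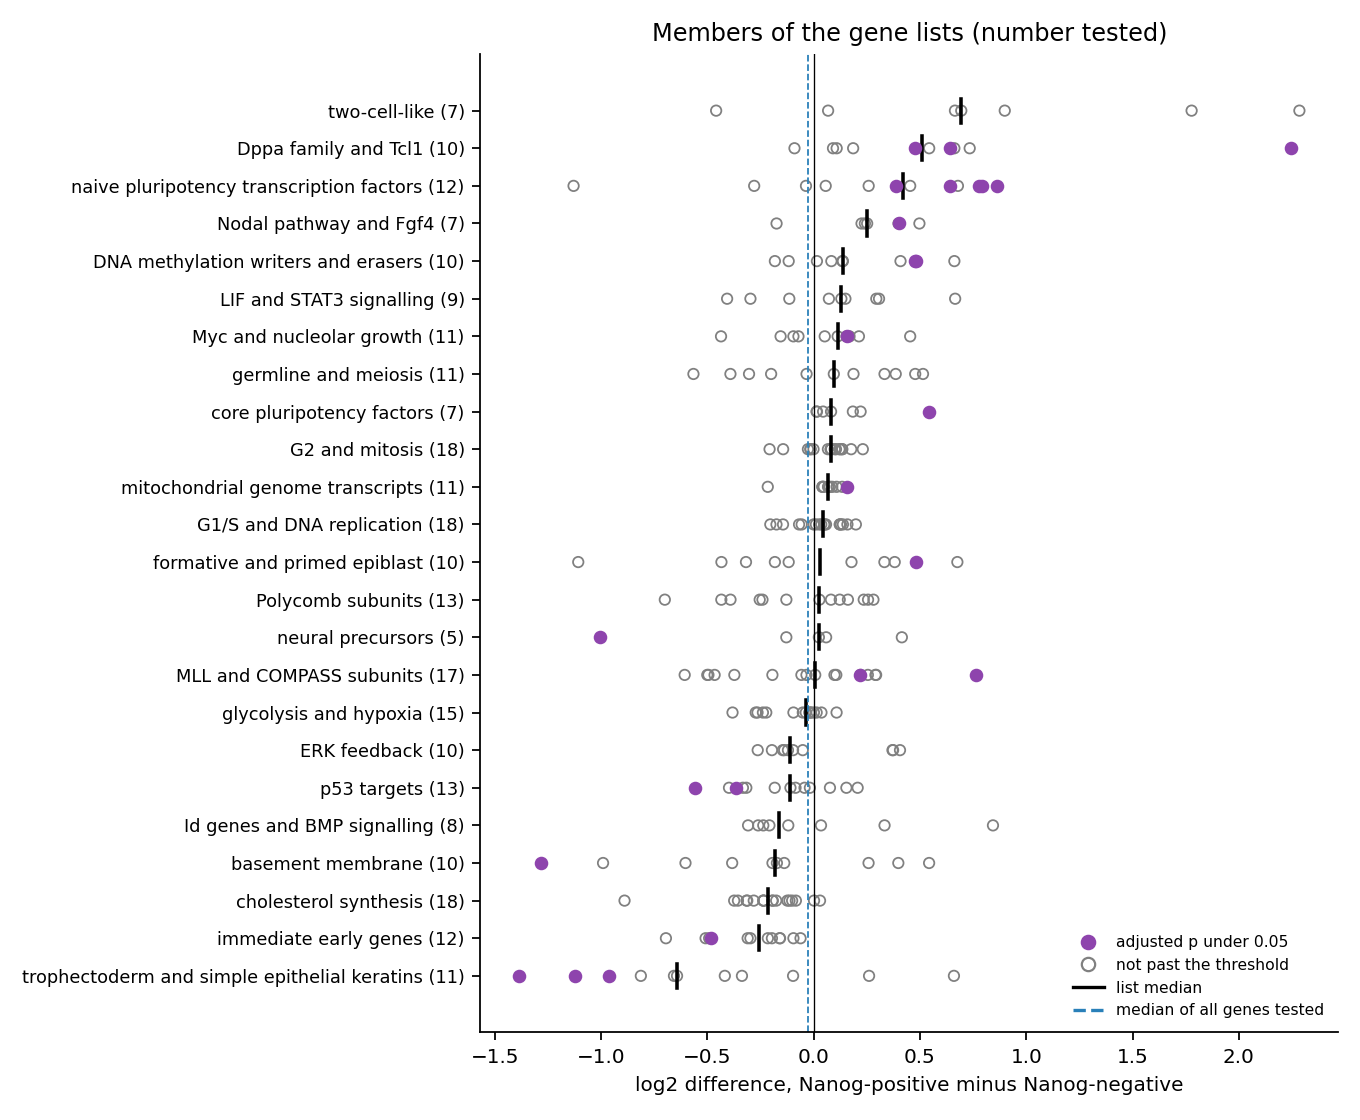
Each point is the log2 difference, Nanog-positive minus Nanog-negative, of 1 member of a gene list with at least 5 tested members; filled points passed an adjusted p of 0.05, black bars are list medians and the dashed line is the median of all genes tested. The Dppa and Tcl1 list (median 0.51) and the naive transcription factors (0.42) lay to the right with the two-cell-like list (0.69, 0 of 7 passed), and the keratin and trophectoderm list (-0.64) lay farthest to the left.

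Subunits of the MLL and COMPASS family of complexes were read because Mll1 was the gene perturbed. The list covers the family and is not limited to partners of MLL1. Of 17 tested MLL and COMPASS subunits, 2 rose, 0 fell, and the median was 0.01, against 0.598% of all genes tested that rose. Both calls depend on the processing, since Dpy30 and Kmt2c each passed in 8 of 18 alternatives. Dpy30 (chromosome 17, 74299474 to 74323944), a core subunit shared by these complexes, was at 706 to 1286 CPM (median 1059.6) in the Nanog-positive libraries, against 617 to 1066 CPM (median 862) in the Nanog-negative ones, higher in 8 of 9 pairs by 0.22 ± 0.04 (adjusted p = 0.00754). Kmt2c (chromosome 5, 25271798 to 25498783), the methyltransferase MLL3, was at 37.3 to 73.7 CPM (median 57.1) in the Nanog-positive libraries, against 25.9 to 38.6 CPM (median 30.6) in the Nanog-negative ones, higher in all 9 pairs by 0.76 ± 0.17 (adjusted p = 0.0188). Kmt2a itself was at 13.5 to 63.4 CPM (median 44) in the Nanog-positive libraries, against 48.2 to 71.2 CPM (median 58.3) in the Nanog-negative ones, lower in 7 of 9 pairs, and did not pass (-0.50 ± 0.17, adjusted p = 0.2). Wells with a Kmt2a UMI made up 32.9% of the Nanog-positive and 36.1% of the Nanog-negative class.

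The neighbours of Nanog on chromosome 6 were examined because several are themselves genes of pluripotent cells. Of 26 genes within 500 kb, 13 were tested and 0 passed in edgeR, 1 passed with DESeq2 (Gm8430), and 5 had an unadjusted p under 0.05. Among all 11872 genes tested, 347 passed with DESeq2 and 1358 had an unadjusted p under 0.05. Gdf3 (chromosome 6, 122605403 to 122610087), a ligand of the TGF-beta family, was at 55.8 to 168 CPM (median 129) in the Nanog-positive libraries, against 55.2 to 115 CPM (median 91.1) in the Nanog-negative ones, higher in 7 of 9 pairs (0.40 ± 0.13, adjusted p = 0.158). Dppa3 (chromosome 6, 122626410 to 122630272), a maternal factor that protects DNA methylation, was at 3.36 to 35 CPM (median 23.2) in the Nanog-positive libraries, against 6.12 to 35.6 CPM (median 11.6) in the Nanog-negative ones (0.54 ± 0.25, adjusted p = 0.403). Phc1, a Polycomb subunit, differed by 0.25 ± 0.11 (adjusted p = 0.354). The pseudogene Gm8430 differed by 0.13 ± 0.04 (adjusted p = 0.191), and 93.0% of its 31-base words occur in transcripts of Rps27a. Slc2a3, which encodes the glucose transporter GLUT3 and lies 13176 bases beyond Nanog, averaged 377 CPM in Nanog-positive and 379 CPM in Nanog-negative libraries (-0.02 ± 0.08, adjusted p = 0.954).

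Promoter windows of called genes were searched for 5 motifs, chosen with these results known, on both strands: the joined element printed above for Nanog, the octamer ATTTGCAT, which overlaps the first letters of that element, TCAAGGTCA (an Esrrb site), TGANTCA (an AP-1 site) and GGGGCGGGG (a GC box). RefSeq windows were matched by symbol for 51 of the 71 higher and 48 of the 63 lower genes, under 80% of each; a comparison of the 2 sets is therefore void and only counts are given. TGANTCA was found in 0 of the 51 and 9 of the 48, in 466 of 8499 tested genes with a window (5.48%) and in 2425 of all 27025 (8.97%). The octamer was found in 2 of the 51 (Spp1 and Zfp42), 1 of the 48 (Gadd45g) and 532 of all genes (1.97%). The octamer was in 128 of the 8499 tested genes (1.51%). The GC box was found in 16 of the 51 (31.4%), 18 of the 48 (37.5%), 2162 of the 8499 tested genes (25.4%) and 3488 of all (12.9%). TCAAGGTCA was found in 0, 0, 21 of the tested (0.247%) and 126 of all (0.466%), and the joined element in 0, 0 and 3 of the tested. Stretches of 1 gene that rose and 2 that fell are shown with the motif in capitals, on the strand of the gene: Zfp42 at chr8:43307148-43307235, minus strand, with the octamer, and Anxa2 at chr9:69453548-69453634 and S100a11 at chr3:93520320-93520406, both plus strand, with the AP-1 letters.
Zfp42: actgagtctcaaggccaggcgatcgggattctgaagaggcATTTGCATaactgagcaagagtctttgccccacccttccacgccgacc
Anxa2: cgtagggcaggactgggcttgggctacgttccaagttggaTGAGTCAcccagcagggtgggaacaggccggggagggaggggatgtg
S100a11: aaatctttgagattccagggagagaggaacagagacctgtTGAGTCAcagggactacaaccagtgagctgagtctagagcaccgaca
These letters show only what the windows contain.

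The classes were next split by the number of Nanog UMIs, as a description, with wells of all cell types summed per plate. Dppa5a averaged 4634 ± 329 CPM in wells with 0 Nanog UMIs, 6545 ± 370.4 with 1, 7299 ± 496 with 2 and 7977 ± 712 with 3 or more (SD, n = 3 plates). Lgals1 ran the other way, at 2312 ± 419, 1727 ± 137, 1637 ± 102 and 1309.8 ± 136 CPM. Anxa2 was at 180.3 ± 35.3, 125 ± 24.8, 103 ± 28.2 and 58.7 ± 53.3 CPM. Esrrb was at 29.3, 36.2, 60.7 and 76.4 CPM and Klf4 at 26.7, 34.8, 51.3 and 56.3 CPM in the same order. Nr0b1 did not follow the order, at 100.3 ± 37, 166 ± 46.1, 225 ± 119 and 164 ± 52.4 CPM. Of the 71 genes that rose, 58 were higher in wells with 3 or more Nanog UMIs than in wells with 1, and 24 increased at every step. Of the 63 that fell, 58 were lower with 3 or more than with 1, and 21 decreased at every step. Wells with exactly 1 Nanog UMI lay on the called side of wells with 0 for all 134 genes. Over all genes tested, of the 5467 above 0, 54.8% were higher with 3 or more than with 1, 7.52% increased at every step and 76.3% were higher with 1 than with 0; of the 6405 below 0, 50.7, 7.37 and 80.4% did the same downwards. The 134 were called from these same wells and by the same Nanog UMIs, so their order follows in part from their choice and supports nothing further.

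**Figure D4:**
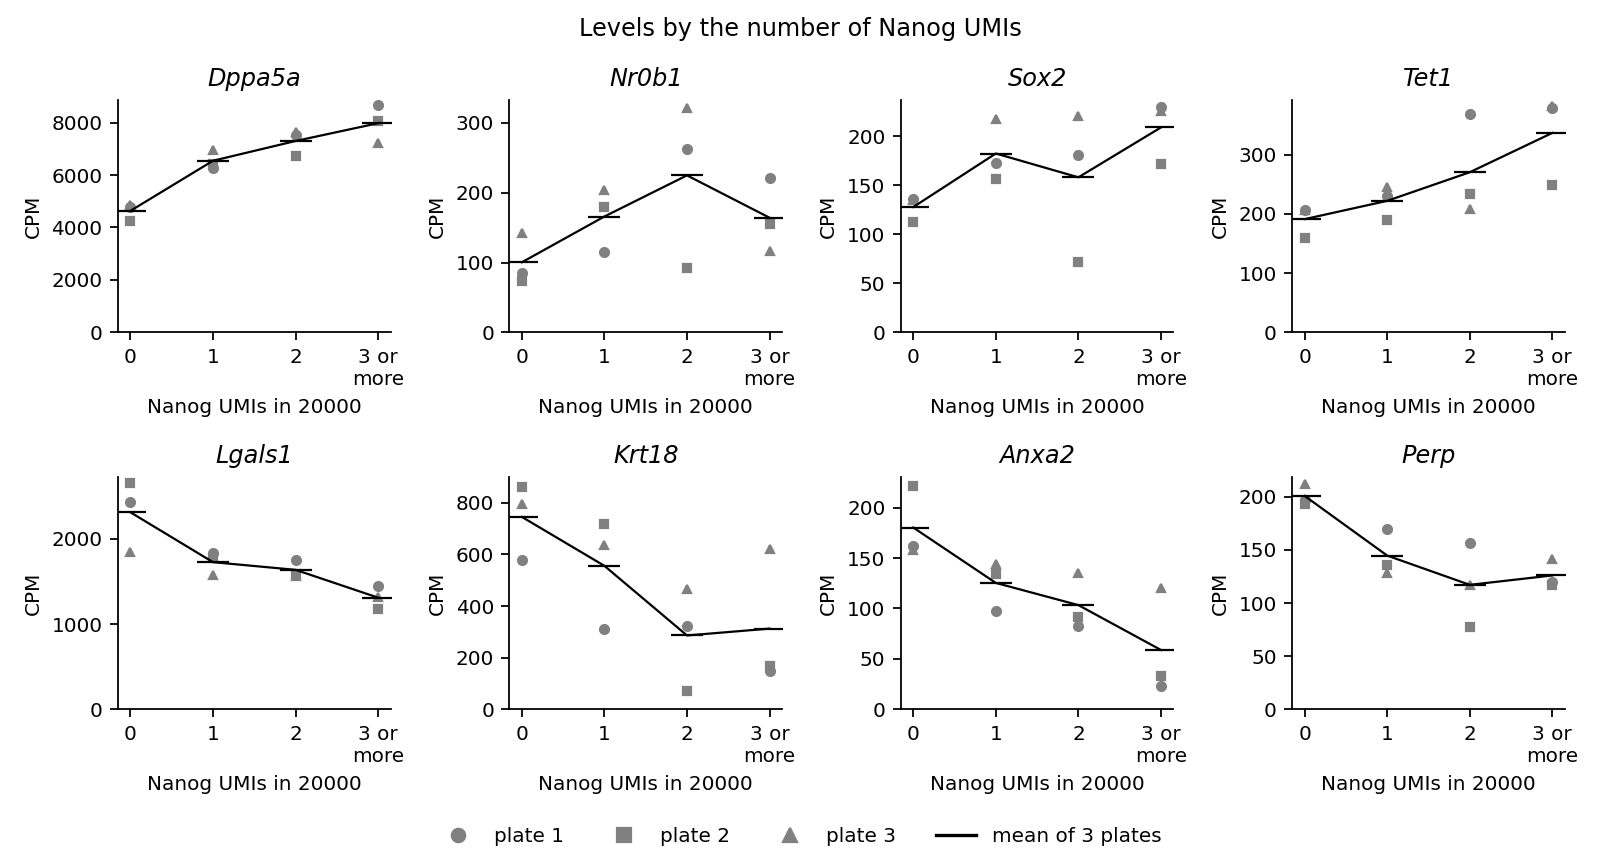
Level (CPM) of 8 genes in wells with 0, 1, 2 and 3 or more Nanog UMIs in 20000, 1 point per plate over all cell types, with the mean of 3 plates as a line. Dppa5a lay at 4634, 6545, 7299 and 7977 CPM and Lgals1 at 2312, 1727, 1637 and 1309.8 CPM. The groups with 2 and with 3 or more hold 18 to 53 wells a plate, fewer than the groups with 0 and 1.

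The last comparison asked whether the difference between the classes was itself different after Mll1 deletion or inhibition. Within single cell types few genes passed: 5 in deleted cells (0.0421% of genes tested), 16 in inhibited cells (0.135%) and 4 in control cells (0.0337%), each with 3 pairs and 1 shared estimate of spread. In deleted cells all 5 were higher in the Nanog-positive class (0.0421%) and 0 lower (0%), in inhibited cells 9 were higher (0.0758%) and 7 lower (0.059%), and in control cells 3 were higher (0.0253%) and 1 lower (0.00842%). Dppa5a passed in each, at 0.62 ± 0.09 in deleted cells (adjusted p = 0.00278), 0.74 ± 0.09 in inhibited cells (adjusted p = 0.000125) and 0.56 ± 0.09 in control cells (adjusted p = 0.0123). Nr0b1 passed in deleted cells (1.05 ± 0.18, adjusted p = 0.0204) and control cells (1.13 ± 0.18, adjusted p = 0.0123) but not in inhibited cells (0.35 ± 0.19, adjusted p = 0.559). Krt18 passed in inhibited cells (-1.96 ± 0.33, adjusted p = 0.00939), not in deleted (-1.23 ± 0.30, adjusted p = 0.255) or control cells (-0.36 ± 0.29).

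No gene passed the test of the difference itself: 0 of 11872 genes (0%) between deleted and control cells (366 at an unadjusted p under 0.05) and 0 between inhibited and control cells (508 at an unadjusted p under 0.05) with edgeR, and 0 and 0 with DESeq2. The difference between inhibited and control cells was -0.78 for Nr0b1 (unadjusted p = 0.00649, adjusted p = 0.997) and -1.59 for Krt18 (unadjusted p = 0.00139, adjusted p = 0.997). The 134 genes had the same sign in each cell type taken alone, which the choice of the genes on these same libraries favours. The median over the genes that rose was 0.46 in deleted, 0.47 in inhibited and 0.46 in control cells, and over those that fell -0.46 in deleted, -0.66 in inhibited and -0.48 in control cells.

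**Figure D5:**
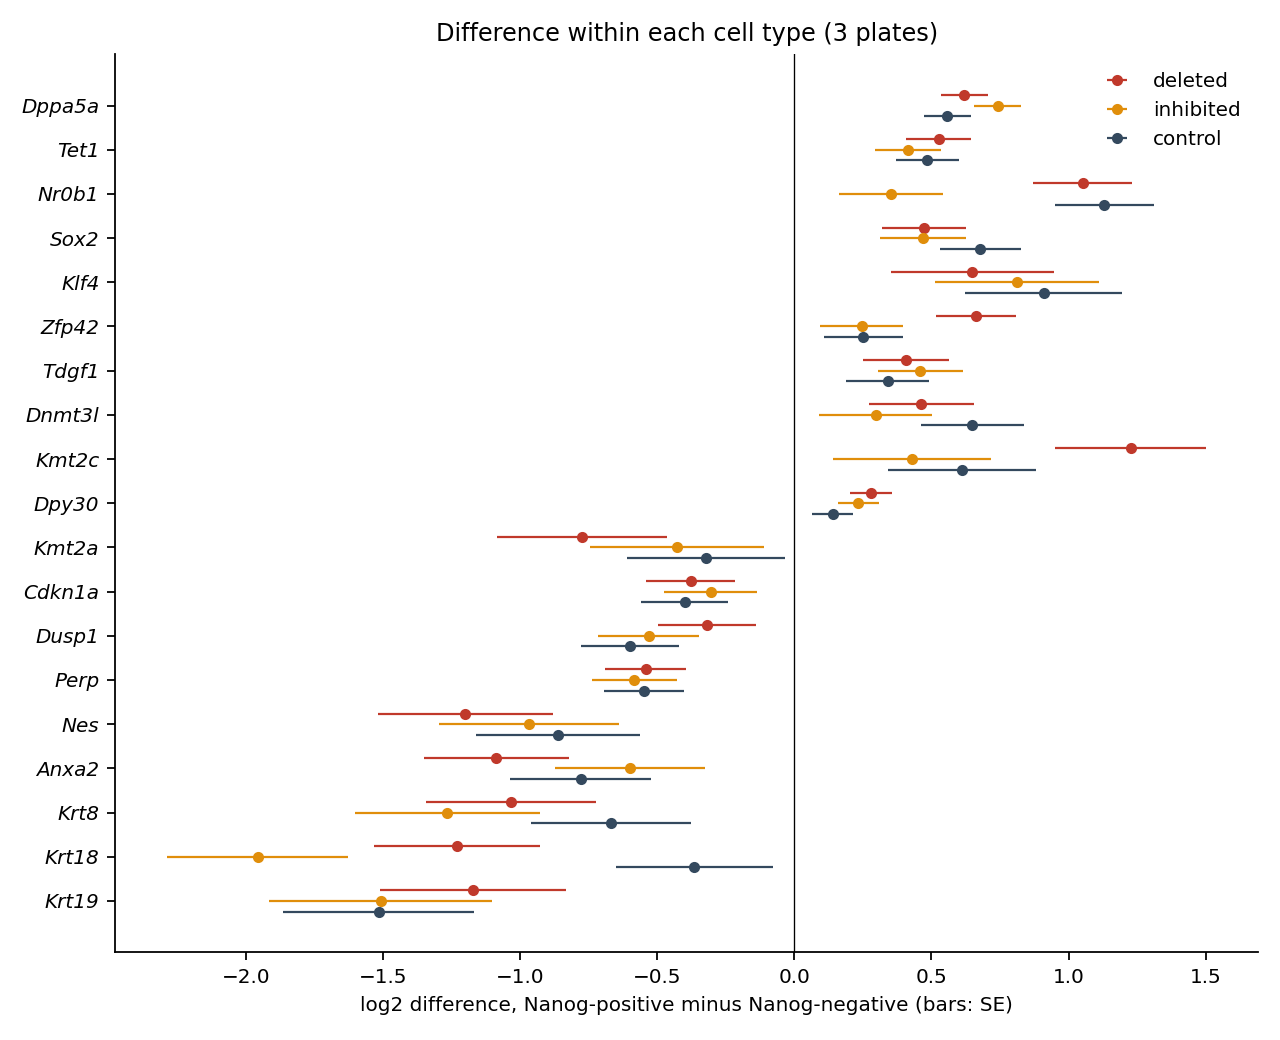
Log2 difference, Nanog-positive minus Nanog-negative, of 19 genes in deleted, inhibited and control cells, with the standard error of the fit over 3 plates. Points of a gene lie on the same side of 0 in all 3 cell types; Krt18 ranged from -1.96 in inhibited to -0.36 in control cells.

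The number of called genes depends on the wells drawn. A second seed called 52 genes, 43 of them among the 134, and leaving out plate 1, 2 or 3 called 38, 30 and 116. Of the 134 genes, 133 kept their sign with the second seed and all 134 in each fit without a plate; Dppa5a, Gm6083, Spp1, Lgals1 and Crip2 passed in each of 18 alternatives tried. Nr0b1 passed in 16 of them, Tet1 and Perp in 16, Sox2 and Krt18 in 15, Klf4 and Krt8 in 13, Anxa2 in 12, Esrrb in 9 and Zfp42 in 8. Fewer alternatives kept Flna, S100a11 and Trim28 (7 each), Tfcp2l1, Col4a2 and mt-Nd5 (6 each), Ncl (5) and Cdkn1a (4) past the threshold.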

How the data were processed

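The files hold UMI counts per gene and well for 3 plates. Per the labels, cDNA was made with SMARTScribe reverse transcriptase and libraries with the Nextera XT kit; the submitters' processing notes name STAR 2.5.2b, featureCounts, Subread 1.4.6-p1 and the build mm10. The strand, the transcript end counted and the way UMIs were collapsed are not given in the sources used here. The authors deposited raw counts and, per the file headers, a report with each well's cell type code. Of 29267 gene IDs, 28641 were named from GENCODE M21. Of 4413 wells of sufficient quality, 1517 were too shallow; the 2896 others held 20039 to 1108770 UMIs (median 71258). No doublet caller was run; leaving out the deepest 5% of wells was an alternative.

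Summed counts without Nanog were tested with edgeR 4.0.16 in R 4.3.3: TMM scaling, filterByExpr, the quasi-likelihood test with plate and cell type as a block, and Benjamini-Hochberg adjustment over all genes tested. The pairing comes from shared plate and cell type. A second model held a class term per cell type and gave the interactions. DESeq2 1.42.0 was an alternative. The CPM of named genes use TMM library sizes; CPM of Nanog, of list sums and of wells grouped by Nanog UMIs use plain totals. Standard errors are those of the log2 difference. The fits were tested on simulated data. Genes were named by rule: Kmt2a, tested genes within 500 kb of Nanog, 3 members per list with the smallest p, and the 12 largest rises and falls at 20 CPM or more with 8 of 9 pairs of 1 sign; others are marked where named. The members and lists were chosen with earlier results of these data known. The authors' reports were also used to check well totals.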

Additional observations from a re-analysis of the deposited data

Results flagged for a closer look

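For 67 genes named in the text, the 9 within-pair differences in log2 (CPM + 1) were searched for 1 value far from the other 8, a search that chance alone flags in about 1 of 20 groups; 5 genes were flagged, and no cause was tested. In deleted cells of plate 3, Gm26916 differed by -1.11 (4.49 CPM in Nanog-positive and 10.9 CPM in Nanog-negative cells), against 1.17 to 3.02 in the other pairs. In the same pair Sept1 differed by -1.03 (20.2 CPM in Nanog-positive and 42.3 CPM in Nanog-negative cells), against 0.54 to 1.86 elsewhere. Krt8 differed by -3.14 in deleted cells of plate 2 (32.1 CPM in Nanog-positive and 290.2 CPM in Nanog-negative cells), against -1.51 to 0.05. Dpy30 differed by -0.0184 in control cells of plate 3 (758 CPM in Nanog-positive and 768 CPM in Nanog-negative cells), against 0.16 to 0.34. Trim28 differed by -0.18 in inhibited cells of plate 1 (225 CPM in Nanog-positive and 256 CPM in Nanog-negative cells), against 0.24 to 0.64.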

How the results depend on the processing

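The count of 134 genes (71 higher, 63 lower) moved under several settings. It was 296 (65 higher, 231 lower) with no filter on low counts, 347 (223 higher, 124 lower) with DESeq2, 60 (24 higher, 36 lower) with wells thinned to 10000 UMIs, 52 (31 higher, 21 lower) with a second thinning seed, 13 (4 higher, 9 lower) in wells of 20000 to 60000 UMIs and 64 without keratin-rich wells, and it ranged from 30 to 116 when 1 plate was left out. Without TMM scaling 149 genes passed (51 higher, 98 lower), and the median of all genes was -0.07 in place of -0.03. Without the replicate block of plate and cell type 61 passed (37 higher, 24 lower), 53 of them among the 134. Positive at 2 or more UMIs gave 144, a disjoint second draw 105, no thinning 94, no deepest 5% of wells 96, mitochondrial share under 10% 155, cell types summed per plate 97 and, added after the data were seen, no basement-membrane-rich wells 112.

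Within deleted cells the 5 genes became 54 with no filter, 20 with DESeq2, 0 with the second seed (706 at an unadjusted p under 0.05), 0 without the replicate block (854), 2 in libraries of deleted cells alone and 5 to 14 without a plate. Within inhibited cells the 16 became 111, 87, 9 and 4 in the same settings, 22 in their libraries alone and 6 to 20 without a plate. Within control cells the 4 became 35, 28, 0 (416) and 0 (438), 44 alone and 0 to 4 without a plate. Between deleted and control cells the 0 differing genes became 7 with no filter and 0 to 3 without a plate; between inhibited and control cells they became 8 with no filter and stayed 0 to 0 without a plate. The difference in median UMIs passed with the second seed (9571 UMIs, p = 0.0469 in the exact sign permutation).

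Of 1151 alternative values of the 64 called genes named, 745 stayed past the threshold with the same sign, 405 kept the sign and did not pass, and 1 reversed: Gm26916, at -0.35 in wells of 20000 to 60000 UMIs. Among genes not called, Gm8430 reversed in that setting (-0.0475), and Slc2a3 reversed with wells thinned to 10000 UMIs (0.0983), in wells of 20000 to 60000 UMIs (0.0886) and without keratin-rich wells (0.0432), and ranged from -0.152 to 0.0754 when 1 plate was left out. The Nanog-positive libraries held 29 to 80 wells; how the number of wells limits detection was not measured.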

Other observations

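The Zscan4 family, genes expressed in bursts by rare two-cell-like embryonic stem cells, was concentrated in a few wells. Before thinning, 3 of 435 Nanog-positive wells (0.69%) and 7 of 2461 Nanog-negative wells (0.284%) held at least 10 Zscan4 UMIs. The highest was a Nanog-positive deleted cell of plate 3 with 2359 Zscan4 UMIs among 77374, and the next a Nanog-positive control cell of plate 2 with 722 among 166507. Each of these 2 wells held 1 Nanog UMI in the thinned count. The highest Nanog-negative well, a control cell of plate 2, held 511 among 50192. The summed level of the two-cell-like list was accordingly 0 to 949 CPM (median 1.61) in Nanog-positive libraries and 0.933 to 65.7 CPM (median 2.33) in Nanog-negative libraries, higher in the Nanog-positive library of 4 of 9 pairs.

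Of 18 tested genes of cholesterol synthesis, 16 lay below 0 (median -0.21), 0 passed in edgeR or DESeq2, and 3 had an unadjusted p under 0.05. Among all 11872 genes tested, 6405 lay below 0 and 1358 had an unadjusted p under 0.05. Their sum was 521 to 791 CPM in Nanog-positive and 543 to 873 CPM in Nanog-negative libraries, lower in the Nanog-positive library of 8 of 9 pairs.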
